A study of Mus musculus with 12 samples.

Results

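The genes described here are 36 mouse genes of glucose and lactate use: the enzymes of glycolysis, the carriers of glucose, lactate and pyruvate, the enzymes at the entry of pyruvate into the mitochondrion, and the enzymes of glycogen. They were taken by name from a list of members, with isoforms usually assigned to glia set against those usually assigned to neurons, and all 36 were found among the 48709 genes of the count files. RNA sequencing was performed on 12 primary hippocampal cultures prepared from embryonic day 17 embryos of CD1 mice. At day 10 in vitro the cultures received lipid nanoparticles packaged with a miR-148a-3p mimic (6 cultures, mimic) or with a negative control oligonucleotide (6 cultures, control). They were harvested at day 12, after 48 h. According to the study's methods, hippocampi of several embryos were pooled before plating, and the protein ApoE4 was given together with the nanoparticles. The study's results describe primary hippocampal cultures, in an experiment with a mix of mimics, as holding glial cells beside neurons. The comparison asks which transcripts differ when the level of this microRNA is raised. Whether the 6 cultures of a group came from separate preparations is not given in the sources used here, so the p-values measure the spread between these cultures.

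Glycolysis splits glucose into pyruvate, which is either reduced to lactate by lactate dehydrogenase or carried into mitochondria and oxidised by pyruvate dehydrogenase. In the brain several of these steps are carried out by different isoforms in different cells: aldolase C marks astrocytes, neuron-specific enolase (Eno2) marks neurons, and lactate leaves and enters cells through monocarboxylate transporters with distinct cell distributions. Glycogen is stored mostly in astrocytes, where the brain and muscle forms of glycogen phosphorylase break it down.

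MicroRNAs recognise transcripts mainly by pairing of their seed, bases 2 to 8, with sites in the 3′ untranslated region (UTR). The mature sequence applied as the mimic, from RefSeq (GRCm38.p6, chr6:51269829-51269850, minus strand) and identical to that in the reagent list of the study, and the listed negative control for mimics are shown to give the seeds that were searched, in capitals.
mmu-miR-148a-3p: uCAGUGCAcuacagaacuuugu
negative control: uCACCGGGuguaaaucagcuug
The series text calls the control a siRNA, so the second sequence stands for the control cultures only if the listed control was the one used. In the longest annotated 3′ UTR, 7 of the 36 genes (19.4%) held a site for the miR-148a-3p seed, either a match to all of bases 2 to 8 or one to bases 2 to 7 with an A opposite base 1, compared with 3307 of 15082 tested genes with a 3′ UTR (21.9%), and the control seed had no match in any member. The sites are shown because they are the only places in these UTRs with a match of either kind. Capitals mark the match, including that A where it is present, and coordinates are those of the capitals on GRCm38.
Gpi1, chr7:34202358-34202364: tctcaccataTGCACTGcatggtcct
Aldoc, chr11:78327338-78327344: tagacagatgTGCACTGgaaaagtca
Slc2a1, chr4:119137093-119137100: tagtctcctgTGCACTGAgggccaca
Pdha1, chrX:160123413-160123419: gaattgtggagGCACTGAccatcatg
Pdk1, chr2:71902932-71902938: tctccacacgTGCACTGtgcacatgc
Pdk1, chr2:71903032-71903038: gaggcaggctTGCACTGtagatagcc
Pygb, chr2:150831114-150831120: cctggagaggaGCACTGAagagagag
Pygb, chr2:150831491-150831497: ttcaccacctTGCACTGctctatctg
Gys1, chr7:45455595-45455602: gcattctttgTGCACTGAtctggagt
Slc2a1 and Gys1 held an 8-base match of both kinds at once, the site of Pdha1 and the first site of Pygb lack the pair at base 8, and Pdk1 and Pygb held 2 sites each. Gpi1 and Slc2a1 were also on the study's list of predicted miR-148a-3p targets. A match is a description of the sequence and not evidence of binding.

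Library totals ranged from 20018234 to 37149112 counts. Control replicate 1 had the lowest total, followed by control replicate 2 with 23097094, and the first of them stood apart from the other controls on principal component 2 of all tested genes (a score of 47.03 against -16.8 to 6.98). Cell-type markers were summed per library in CPM, counts relative to the scaled total of the library. The 15 astrocyte markers summed to 5923 to 6387 CPM in control and to 7098 to 7573 CPM in mimic, without overlap, with 10 genes higher and 2 lower. Slc1a2 and Slc1a3, the glial glutamate transporters, rose by 0.24 and 0.99 on the log2 scale, and Gfap, an intermediate filament of astrocytes, fell by 0.90. The 14 neuronal markers (2 higher, 4 lower, with Map2, Stmn2 and Slc17a7 the most abundant) summed to 8534 to 9445 CPM in control and to 8541 to 8928 CPM in mimic. The 9 markers of the oligodendrocyte lineage (5 higher, 1 lower, led by Olig1, Olig2 and Cnp) summed to 428 to 724 CPM in control, where control replicate 1 had the 724 CPM and the other controls 428 to 458 CPM, and to 810 to 1003 CPM in mimic. All 10 proliferation genes, among them Top2a, Mki67 and Cenpf, rose, from 216 to 275 CPM in sum to 475 to 499 CPM. Markers of microglia (12 genes, led by Cd68, Aif1 and Csf1r, 0 higher and 3 lower) summed to 17.6 to 21.1 CPM in control and 15.6 to 37.6 CPM in mimic. Markers of endothelial cells (8 genes, 6 tested, led by Kdr, Slco1a4 and Pecam1, 0 higher and 2 lower) summed to 48.1 to 71.6 CPM in control and 29.8 to 53.3 CPM in mimic, with Cldn5, at 0 in all controls, and Ly6c1 below the filter on low counts. Most of this sum was Kdr, at 58.6 ± 8.31 CPM in control and 37.6 ± 9.38 CPM in mimic, while Pecam1 was at 0.718 and 0.605 CPM. Mesenchymal markers (8 genes, led by Col1a2, Col1a1 and Col3a1, 0 higher and 2 lower) summed to 201 to 268 CPM in control and 98.1 to 226 CPM in mimic. The 3 collagens did not pass the test, and the genes that fell were Acta2 and Tagln, of the contractile apparatus, with log2 fold changes of -2.86 and -1.74. No marker of these lists was at 0 in all 12 libraries. The cultures were labelled as neurons, and markers of neurons and of astrocytes were both abundant in every library. A gene used by 1 cell type can therefore differ in the bulk RNA through fewer cells or through less RNA per cell, which cannot be told apart here, and the part of these marker differences in the results below was not tested.

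All 36 genes passed the filter of at least 5 counts in at least 6 libraries. In edgeR's quasi-likelihood test with Benjamini-Hochberg adjustment over the 18847 genes tested, 8 of the 36 passed an adjusted p of 0.05, 4 higher and 4 lower in mimic. Over all tested genes 22.2% passed, 11.5% higher and 10.7% lower, so the share among the 36 equalled the background. Of the 34 members that averaged 200 counts or more per library 7 passed, 3 higher (8.82%) and 4 lower (11.8%). Among all such genes 28.1% passed in either direction. The genes that rose were the muscle glycogen phosphorylase Pygm, the enolase Eno1, the astrocytic aldolase Aldoc and the pyruvate dehydrogenase kinase Pdk2. The genes that fell were the lactate transporter Slc16a1, the brain glycogen phosphorylase Pygb, the hexokinase Hk1 and the phosphofructokinase Pfkp. Most differences were small: the median size of the log2 fold change was 0.077 over the 36 genes and 0.119 over all tested genes. Among genes that averaged 200 counts or more it was 0.074 for the 34 members and 0.086 for all such genes. The signed medians were 0.028 over the 36 genes and -0.012 over all tested genes. The 12 libraries did not overlap between groups for 4 of the 36 genes, with Pygm above and Hk1, Pfkp and Pygb below, against 13.3% of all tested genes (7.43% above, 5.83% below). All the differences below are log2 fold changes of mimic against control with their standard error (SE), and adjusted p-values are from edgeR.

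**Figure D1:**
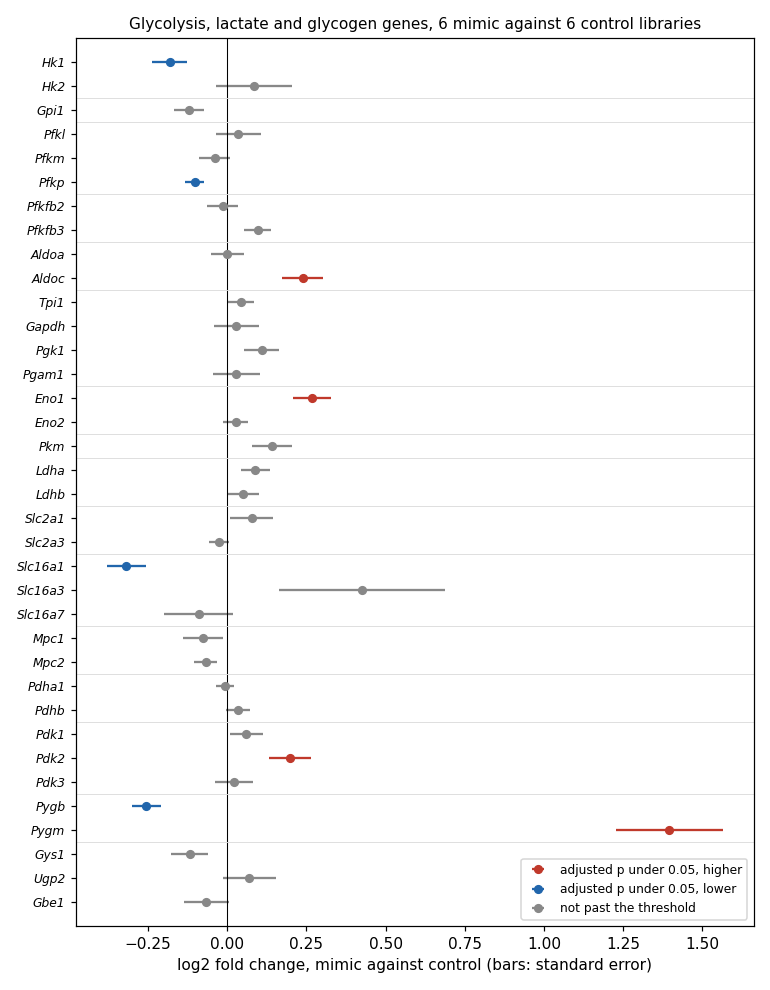
Log2 fold change of mimic against control for the 36 genes, in pathway order, with bars for the standard error of the fit over 6 libraries per group. The 8 coloured points passed the test, Pygm lies far to the right at 1.40, and the other 35 lie between -0.32 and 0.43.

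Glycogen phosphorylase releases glucose 1-phosphate from glycogen, and its brain and muscle isoforms moved in opposite directions. Pygm (ENSMUSG00000032648, chr19:6384399-6398459, plus strand) had a lowest, median and highest level of 1.14, 1.39 and 2.02 CPM in control and of 2.89, 3.64 and 5.38 CPM in mimic. Every mimic library lay above every control library, although the gene rested on few reads, 33 to 67 counts per control library and 97 to 153 per mimic library. The mean rose 2.63-fold, from 1.49 ± 0.345 to 3.92 ± 0.938 CPM (SD, n = 6 each; 1.40 in log2 units, SE 0.17, edgeR adjusted p = 9.99e-06). Pygb (ENSMUSG00000033059, chr2:150786735-150831758, plus strand), the isoform with the higher level, had a lowest, median and highest level of 386, 412 and 466 CPM in control and 338, 350 and 368 CPM in mimic. Here all mimic libraries lay below all control libraries, and the mean fell from 420 ± 32 to 352 ± 11.9 CPM (log2 fold change -0.26, SE 0.046, edgeR adjusted p = 0.000509). Per kilobase of exon, with all annotated exons of a gene merged, Pygb stood at 87.4 ± 6.66 CPM per kb in control and Pygm at 0.464 ± 0.107 CPM per kb. The merged length can exceed that of the transcripts expressed, so levels per kilobase compare different genes only roughly. Only 13 windows of 50 bases, the read length, were shared between the transcripts of these isoforms. Of the 4 genes that fell only Pygb holds sites for the seed shown above, and of the 4 that rose only Aldoc does.

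The other glycogen genes of the group did not pass the test. Gys1, the glycogen synthase of brain and muscle, was at 21.8 to 23.5 CPM in control and 18.4 to 23.3 CPM in mimic (log2 fold change -0.12, SE 0.057, edgeR adjusted p = 0.158). Ugp2, which makes the UDP-glucose that glycogen is built from, was at 79.6 to 120 and 102 to 118 CPM, and the branching enzyme Gbe1 at 10.4 to 13.9 and 11.2 to 14.0 CPM. Their log2 fold changes were 0.07 and -0.07, that of Ugp2 being 0.005 without control replicate 1 and -0.049 without control replicates 1 and 2, and the ranges of both groups overlapped for all 3 genes. Of the exon bases of Gys1, 6.47% are shared with Ruvbl2 on the opposite strand, and whether reads were counted by strand is not stated.

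Aldolase splits fructose 1,6-bisphosphate. Aldoc (ENSMUSG00000017390, chr11:78322968-78327781, plus strand), the astrocytic isoform, had a lowest, median and highest level of 418, 438 and 580 CPM in control and of 518, 535 and 572 CPM in mimic. The highest value of all was control replicate 1, and the other 5 controls, at 418 to 457 CPM, lay below every mimic library. The mean rose from 460 ± 60.1 to 543 ± 21.2 CPM (SD, n = 6 each), that is 0.24 in log2 units (SE 0.065, edgeR adjusted p = 0.0139), and without control replicate 1 it was 0.31 (SE 0.032, edgeR adjusted p = 2.93e-07). Aldoa, the isoform found in most cells, showed no such difference: it was at 547 to 708 CPM in control and 579 to 621 CPM in mimic, with means of 595 ± 59.7 and 595 ± 14.1 CPM (log2 fold change 0.0, SE 0.052, edgeR adjusted p = 0.998). Per kilobase Aldoa was the higher of the pair in control, at 204 ± 20.5 against 141 ± 18.4 CPM per kb, and their control ranges did not overlap. Of the coding windows of Aldoa 16.8% also occur in other genes, and none of those of Aldoc.

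Enolase forms phosphoenolpyruvate. Eno1 (ENSMUSG00000063524, chr4:150236721-150248879, plus strand), the isoform of glia and most other tissues, had a lowest, median and highest level of 67.8, 70.5 and 90.4 CPM in control and of 85.3, 88.9 and 93.9 CPM in mimic. The control at 90.4 CPM was replicate 1, and the other 5 controls, at 67.8 to 79.5 CPM, lay below every mimic library. The mean rose from 74.5 ± 8.94 to 89.4 ± 2.93 CPM (log2 fold change 0.27, SE 0.061, edgeR adjusted p = 0.00367). Of the 50-base windows of the Eno1 coding sequence, 75.1% also occur in other annotated genes, foremost Eno1b, so its counts depend on how reads with several matches were treated. Eno2, the neuronal isoform, shares no coding window and was at 326 to 386 CPM in control and 348 to 364 CPM in mimic (log2 fold change 0.03, SE 0.039, edgeR adjusted p = 0.696). At 74.2 ± 4.65 CPM per kb in control, Eno2 was well above Eno1 at 13.8 ± 1.66 CPM per kb, although the level of Eno1 carries the same uncertainty.

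**Figure D2:**
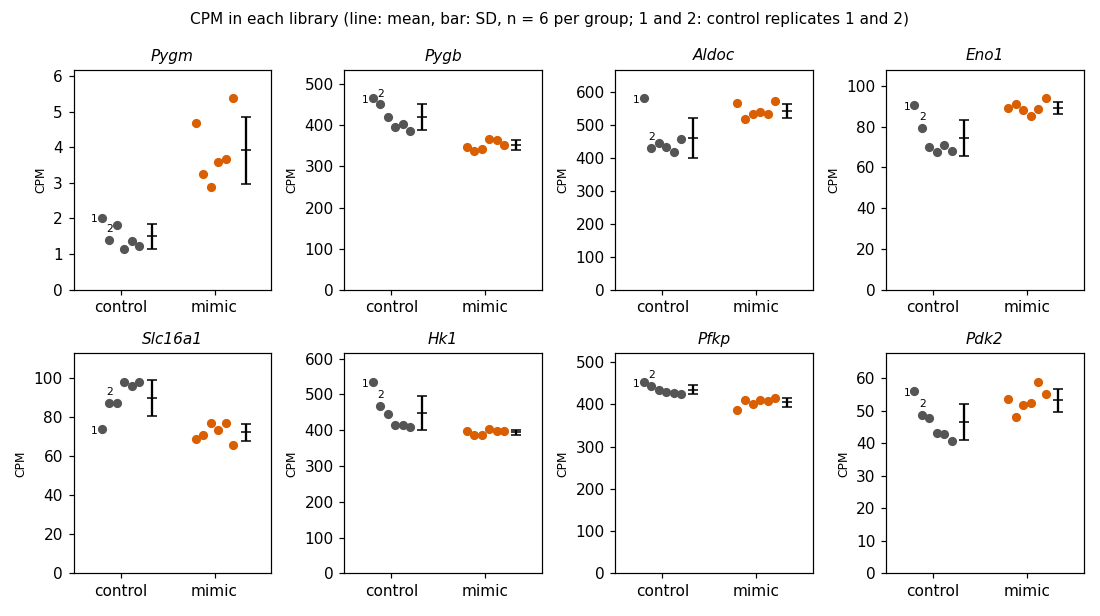
CPM of the 8 genes that passed the test in each of the 12 libraries, with the mean and SD of the 6 libraries per group beside the points and control replicates 1 and 2 numbered. Mimic lies wholly above control for Pygm and wholly below it for Pygb, Hk1 and Pfkp, and control replicate 1 lies within or beyond the range of the mimic libraries for Aldoc, Eno1, Slc16a1 and Pdk2.

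Monocarboxylate transporters carry lactate, pyruvate and ketone bodies across the plasma membrane. Slc16a1 (MCT1; ENSMUSG00000032902, chr3:104638668-104658462, plus strand), found mainly in astrocytes, oligodendrocytes and endothelium, had a lowest, median and highest level of 73.9, 91.5 and 97.9 CPM in control and of 66.0, 72.2 and 77.1 CPM in mimic. The 5 controls other than replicate 1 lay at 87.3 to 97.9 CPM, above every mimic library. The mean fell from 90 ± 9.27 to 72.2 ± 4.49 CPM (SD, n = 6 each), which is -0.32 as a log2 fold change (SE 0.062, edgeR adjusted p = 0.00109) and -0.37 without control replicate 1 (edgeR adjusted p = 2.86e-06). The part of the marker differences given above in this fall was not tested. Slc16a7 (MCT2), the neuronal transporter, was at 67.7 to 105 CPM in control and 76.6 to 95.9 CPM in mimic and did not pass (log2 fold change -0.09, SE 0.11, edgeR adjusted p = 0.622). Control replicates 1 and 2, at 67.7 and 70.9 CPM, were the lowest of all 12 libraries for this gene, and without both its log2 fold change was -0.24 (edgeR adjusted p = 0.0302, with 4 controls left). Slc16a3 (MCT4), the transporter of lactate-exporting astrocytes, was measured with 7 to 39 counts per library. It was at 0.547 ± 0.146 CPM in control and 0.737 ± 0.295 CPM in mimic and did not pass (log2 fold change 0.43, SE 0.26, edgeR adjusted p = 0.286). Its log2 fold change was 0.245 without mimic replicate 3 and 0.572 without mimic replicate 5.

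Lactate dehydrogenase interconverts pyruvate and lactate. Ldha, the subunit that favours lactate formation, was at 291 to 342 CPM in control and 307 to 347 CPM in mimic (log2 fold change 0.09, SE 0.045, edgeR adjusted p = 0.178). Ldhb, the subunit of neurons and heart that favours pyruvate, was at 80.6 to 97.4 CPM and 81.6 to 97.1 CPM (log2 fold change 0.05, SE 0.049, edgeR adjusted p = 0.518). Neither subunit passed, and both ranges overlapped. Per kilobase Ldha stood above Ldhb in control, at 92.2 ± 6.17 against 54.8 ± 3.85 CPM per kb, and 25.2% and 33.4% of their coding windows also occur in other genes. Without control replicate 1 Ldha passed the test with a log2 fold change of 0.12 (edgeR adjusted p = 0.00949).

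Glucose enters through facilitative transporters and is trapped by hexokinase. Slc2a1 (GLUT1), found in endothelium and glia, was at 27.3 to 37.2 CPM in control and 29.7 to 35.7 CPM in mimic (log2 fold change 0.08, SE 0.068, edgeR adjusted p = 0.478). The control at 37.2 CPM was again replicate 1, and without it the log2 fold change was 0.14 (edgeR adjusted p = 0.0379). Slc2a3 (GLUT3), the neuronal transporter, was among the steadiest genes of the group, at 235 to 243 CPM in control and 222 to 243 CPM in mimic (log2 fold change -0.03, SE 0.03, edgeR adjusted p = 0.606). Per kilobase Slc2a3 exceeded Slc2a1 in control, at 33 ± 0.475 against 8.61 ± 1.03 CPM per kb. Hk1 (ENSMUSG00000037012, chr10:62268855-62379908, minus strand), the main hexokinase of brain, had a lowest, median and highest level of 409, 430 and 534 CPM in control and of 386, 398 and 403 CPM in mimic. All mimic libraries lay below all controls, the nearest being 403 and 409 CPM, and the controls were widely spread with replicates 1 and 2 highest at 534 and 469 CPM. The mean fell from 448 ± 48.1 to 395 ± 7.15 CPM (log2 fold change -0.18, SE 0.055, edgeR adjusted p = 0.023), and without both of these controls the fall was smaller in size, -0.093 (SE 0.027, edgeR adjusted p = 0.00917). Hk1 did not pass without control replicate 2, mimic replicate 2 or mimic replicate 3 (edgeR adjusted p = 0.0547, 0.0532 and 0.0523). Hk2, the inducible hexokinase, was at 5.95 to 7.69 CPM in control and 6.10 to 10.3 CPM in mimic and did not pass (log2 fold change 0.09, SE 0.12, edgeR adjusted p = 0.683). The value of 10.3 CPM was that of mimic replicate 2, and without it the log2 fold change was -0.05. Its level per kilobase in control, 1.11 ± 0.122 CPM per kb, was far under that of Hk1, 52.5 ± 5.64 CPM per kb.

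Phosphofructokinase commits glucose to glycolysis and is assembled from 3 kinds of subunit. Pfkp (ENSMUSG00000021196, chr13:6579768-6648777, minus strand), the platelet-type subunit, had a lowest, median and highest level of 425, 431 and 453 CPM in control and of 386, 408 and 415 CPM in mimic. The groups did not overlap, and the difference was small: the mean fell from 435 ± 10.9 to 405 ± 10.3 CPM (log2 fold change -0.10, SE 0.03, edgeR adjusted p = 0.0207). Of the exon bases of Pfkp, 5.58% are shared with Pitrm1 on the opposite strand, and the strand setting of the counting is not stated. Pfkp did not pass without mimic replicate 1, the lowest library at 386 CPM (edgeR adjusted p = 0.0575). The muscle-type subunit Pfkm did not pass (log2 fold change -0.04, edgeR adjusted p = 0.633), and neither did the liver-type Pfkl (0.035, edgeR adjusted p = 0.793). Per kilobase of merged exons Pfkm was the highest of the 3 in control, at 101 ± 9.24 CPM per kb. Pfkp was at 32.5 ± 0.815 and Pfkl at 14.4 ± 1.77 CPM per kb. In CPM Pfkp stood above Pfkm, with control means of 435 and 338. The merged exons are 13401 bases long for Pfkp and 3340 for Pfkm, so the order of these 2 depends on the length used. Pfkfb3 and Pfkfb2, which set the level of the activator fructose 2,6-bisphosphate, the first of them known to be kept high in astrocytes and low in neurons, had log2 fold changes of 0.096 (edgeR adjusted p = 0.129) and -0.014 (edgeR adjusted p = 0.882). The counts of Pfkfb2 are uncertain, with 60.5% of its coding windows of 50 bases also found in other genes. Gpi1, the isomerase before phosphofructokinase, which holds a seed site, was at 404 to 497 CPM in control and 394 to 413 CPM in mimic, with all 6 mimic libraries under the control mean, and did not pass (log2 fold change -0.12, SE 0.048, edgeR adjusted p = 0.0838), although it did without control replicate 4 or 5 (edgeR adjusted p = 0.0477 and 0.04). Of its coding windows of 50 bases, 38.7% also occur in other annotated genes.

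The remaining enzymes of lower glycolysis did not pass, and for several the counts are uncertain. Tpi1 (triose phosphate isomerase), Gapdh, Pgk1 (phosphoglycerate kinase) and Pgam1 (phosphoglycerate mutase) had log2 fold changes between 0.028 and 0.109. Every 50-base window of the coding sequences of Pgk1 and Pgam1 also occurs in other annotated genes, as do 93.5% of those of Gapdh, and these genes had only 134 to 489 counts per library. Gapdh, commonly used as a reference transcript, was at 8.50 to 10.7 CPM in control and 8.53 to 10.8 CPM in mimic, so the level of these transcripts cannot be read from the counts. Pkm, pyruvate kinase, whose M1 and M2 splice forms are not separated in counts per gene, was at 471 to 649 CPM in control and 559 to 610 CPM in mimic (log2 fold change 0.14, SE 0.064, edgeR adjusted p = 0.136). The control at 649 CPM was replicate 1, and the other 5, at 471 to 545 CPM, lay below every mimic library. Without that library the log2 fold change of Pkm was 0.21 (SE 0.036, edgeR adjusted p = 0.000127). Its counts are uncertain as well, since 53.6% of its coding windows also occur in other annotated genes. Of the 23 genes with under 5% of their coding windows shared, 3 rose (13%, against 11.5% of all tested genes) and 4 fell (17.4%, against 10.7%), and of the other 13 genes only Eno1 passed the test (7.69%, against 22.2% in either direction).

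Pyruvate dehydrogenase kinases switch off the oxidation of pyruvate in mitochondria by phosphorylating the dehydrogenase. Pdk2 (ENSMUSG00000038967, chr11:95026258-95041354, minus strand) was the highest of the 3 kinases per kilobase of merged exons in control, but not in CPM. It had a lowest, median and highest level of 40.8, 45.6 and 56.1 CPM in control and of 48.3, 53.1 and 58.9 CPM in mimic. The groups overlapped through control replicates 1 and 2, at 56.1 and 48.8 CPM. The mean rose from 46.6 ± 5.57 to 53.4 ± 3.53 CPM (log2 fold change 0.20, SE 0.067, edgeR adjusted p = 0.0432), close to the threshold, and the call was lost when any of 9 of the 12 libraries was left out, all but control replicates 1 and 2 and mimic replicate 2 (edgeR adjusted p up to 0.101). Pdk1 and Pdk3 did not pass (0.06, edgeR adjusted p = 0.478, and 0.021, edgeR adjusted p = 0.852), the first of them with a pair of seed sites. In CPM Pdk1 stood above Pdk2 in control, with means of 57.8 and 46.6, and its merged exons are longer, at 7779 against 3163 bases. The dehydrogenase subunits hardly moved: Pdha1, which also holds a seed site, was at 288 to 306 CPM in control and 288 to 300 CPM in mimic (log2 fold change -0.008, SE 0.029, edgeR adjusted p = 0.894), and Pdhb had one of 0.035 (SE 0.038, edgeR adjusted p = 0.576). Mpc1 and Mpc2, which form the carrier that brings pyruvate into mitochondria, had log2 fold changes of -0.077 and -0.068 and did not pass (edgeR adjusted p = 0.437 and 0.228). Of the coding windows of Pdhb and Mpc1, 43.1% and 41% also occur in other genes, and exon bases are shared with genes on the opposite strand for Mpc1 (23.05%) and Pdha1 (16.15%, with Map3k15).

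Isoforms were then contrasted within each library, which removes the scaling of the library. In most of the 10 pairs the first gene is the form held to be more glial than the other, an assignment that is clear for Eno1/Eno2, Slc2a1/Slc2a3 and Slc16a1/Slc16a7 and loose for the phosphofructokinases, the lactate dehydrogenases and the glycogen phosphorylases. For each pair the log2 ratio of the counts was compared between groups by an exact permutation test of the group labels, two-sided, with Benjamini-Hochberg adjustment over the 10 ratios, where 0.00216 is the smallest p that can be had. The ratio Aldoc/Aldoa was higher in mimic by 0.24 and Eno1/Eno2 by 0.24, and both were higher in 6 of 6 mimic libraries than in every control (exact p = 0.00216, adjusted p = 0.00722 for each). Control replicate 1, which overlapped the mimic libraries in CPM of Aldoc and Eno1, did not overlap them in these ratios, since Aldoa and Eno2 were also highest there among the controls. Pygm/Pygb was higher by 1.63, likewise without overlap (exact p = 0.00216, adjusted p = 0.00722). Slc16a1/Slc16a7 went the other way, lower by -0.244 in mimic with overlapping groups (exact p = 0.00433, adjusted p = 0.0108). Without control replicates 1 and 2 this difference was -0.146 (exact permutation, adjusted p = 0.0317). The other 6 ratios did not pass: Hk2/Hk1 differed by 0.241, Pfkp/Pfkm by -0.068, Pfkfb3/Pfkfb2 by 0.105, Slc2a1/Slc2a3 by 0.102, Slc16a3/Slc16a7 by 0.417 and Ldha/Ldhb by 0.039, with adjusted exact permutation p from 0.134 to 0.569. Without mimic replicate 2 the difference of Hk2/Hk1 was 0.121.

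**Figure D3:**
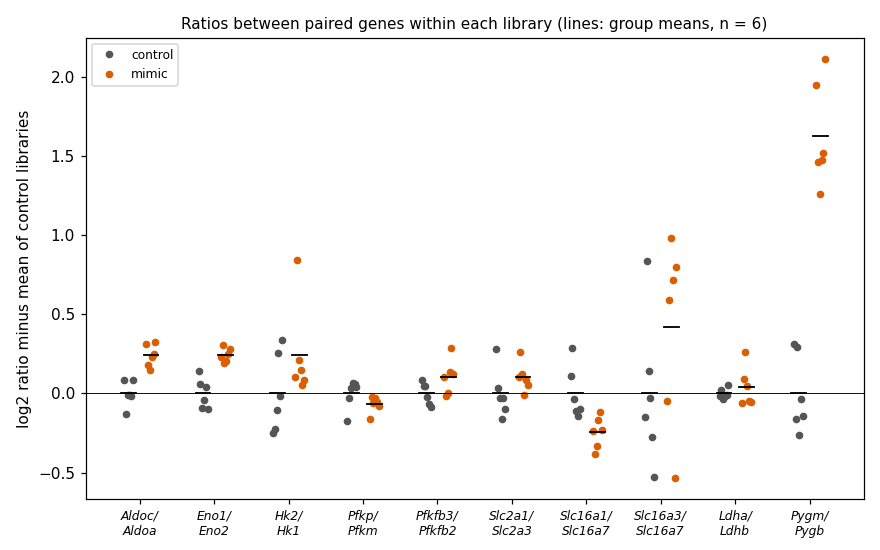
Log2 ratio of the counts of 2 isoforms within each library, as the difference from the mean of the 6 control libraries, for 10 pairs of isoforms, with lines for the group means. The mimic points lie wholly above the control points for Aldoc/Aldoa, Eno1/Eno2 and Pygm/Pygb, and the widest scatter is that of Slc16a3/Slc16a7, which rests on 7 to 39 counts of Slc16a3.

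The control group was less even than the mimic group for these genes. Control replicate 1 was the highest control for 20 of the 36 genes and the lowest for 10, and control replicates 1 and 2 were the highest pair of controls for 17 genes, including Hk1, Gpi1, Pfkm, Aldoa, Eno2, Pkm and Ldha. Without control replicate 1, 7 of the 36 genes were higher and 4 lower (edgeR), against 14.4% and 13.1% (27.4% in either direction) of all tested genes, the added genes being Pkm, Ldha and Slc2a1. Without control replicates 1 and 2, 12 were higher and 5 lower, against 16.4% and 15.4% of all tested genes. Pfkl, Aldoa, Tpi1, Eno2 and Ldhb then also passed, at 0.14, 0.08, 0.10, 0.08 and 0.10 on the log2 scale, and Slc16a7 at -0.24. Among genes that passed in neither setting, Pfkm turned to 0.037, Pgam1 to -0.038 and Pdk3 to -0.057, and Gpi1 shrank to -0.052. The 8 genes that passed in all 12 libraries kept their direction and their call in both of these settings. The part of depth and of the composition of these cultures in this spread was not tested.

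**Figure D4:**
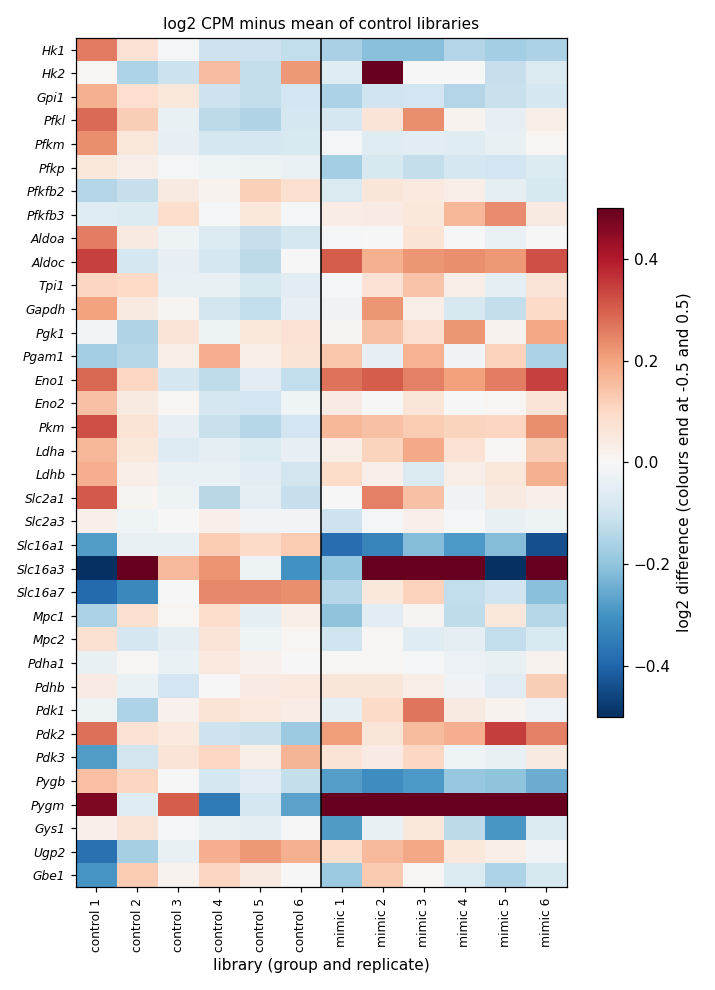
Log2 CPM of the 36 genes in each of the 12 libraries minus the mean of the 6 control libraries, with colours ending at -0.5 and 0.5. Control replicate 1 is red for most glycolytic genes from Hk1 to Slc2a1. It is blue for other genes, among them Pfkfb2, Pgam1, Slc16a1, Slc16a3, Slc16a7, Mpc1, Pdk3, Ugp2 and Gbe1. The rows of Pygm and Pygb have opposite colours across the mimic libraries.

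A further 64 genes of the same pathways were described in the same way. Of the 61 that were tested, 10 were higher (16.4%, against 11.5% of all tested genes) and 13 lower (21.3%, against 10.7%) in mimic, with a median log2 fold change of -0.007. The groups of this list are small, and their counts are descriptions. Among 16 other glycolysis genes 4 rose and 4 fell (25% each, against the same 11.5% and 10.7%): Galm, which interconverts the anomers of galactose and glucose, rose by 0.58, Adpgk, an ADP-dependent glucokinase, rose by 0.18, and Pfkfb4, a further regulator of fructose 2,6-bisphosphate, had a log2 fold change of -0.23 (edgeR adjusted p = 7.81e-05, 0.0112 and 0.0051). Among 10 other transport genes 1 rose (10%) and 2 fell (20%): the insulin-responsive glucose transporter Slc2a4 rose by 0.56, while Slc16a6 had a log2 fold change of -0.63 (edgeR adjusted p = 8.9e-05 and 0.00049).

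At the entry of pyruvate, 2 of 9 further genes rose and 2 fell (22.2% each, against 11.5% and 10.7% of all tested genes). Pcx, pyruvate carboxylase, the enzyme by which astrocytes refill the citric acid cycle, rose from 57.5 ± 4.68 to 77 ± 3.84 CPM (log2 fold change 0.42, SE 0.051, edgeR adjusted p = 8.94e-06), without overlap between groups. Pdk4, the kinase induced by fasting, fell from 6.23 ± 0.474 to 4.5 ± 0.365 CPM (log2 fold change -0.47, SE 0.074, edgeR adjusted p = 0.000156), also without overlap and in the direction opposite to Pdk2. Pdp1, a phosphatase that reverses the action of these kinases, fell from 86.7 ± 10.2 to 65.7 ± 4.8 CPM (log2 fold change -0.40, SE 0.071, edgeR adjusted p = 0.000554). Pdp2, the other such phosphatase, rose from 8.94 ± 0.937 to 11.8 ± 0.801 CPM (log2 fold change 0.39, SE 0.072, edgeR adjusted p = 0.000656), without overlap.

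Among 18 other glycogen genes 2 rose and 2 fell (11.1% each, near the background), beside the opposite differences of Pygm and Pygb. Ppp1r3c, a subunit that targets protein phosphatase 1 to glycogen, rose from 46 ± 1.64 to 58.6 ± 4.55 CPM (log2 fold change 0.35, SE 0.048, edgeR adjusted p = 3.98e-05), and Ppp1r3e, of the same family, had one of -0.35 (SE 0.076, edgeR adjusted p = 0.00255). Phkg1, the catalytic subunit of the phosphorylase kinase of muscle, fell from 16 ± 0.941 to 12 ± 0.628 CPM (log2 fold change -0.42, SE 0.054, edgeR adjusted p = 1.82e-05). Phka1, a regulatory subunit of the same enzyme, rose from 31 ± 1.88 to 36.4 ± 1.44 CPM (log2 fold change 0.23, SE 0.045, edgeR adjusted p = 0.000887). The groups did not overlap for any of these 4 genes. In the pentose phosphate pathway, which branches from glycolysis at glucose 6-phosphate and yields NADPH, 1 of 8 genes rose (12.5%, against 11.5% of all tested genes) and 3 fell (37.5%, against 10.7%). G6pdx, its first enzyme, fell from 40.7 ± 2.28 to 34.2 ± 1.06 CPM (log2 fold change -0.25, SE 0.042, edgeR adjusted p = 0.000273), Taldo1 (transaldolase) had a log2 fold change of -0.17 and Rpe, an epimerase, one of 0.17 (edgeR adjusted p = 0.00941 and 0.0197).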

How the data were processed

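RNA was sequenced from 12 hippocampal cultures with a poly(A)-selecting TruSeq kit as 50 bp single-end reads, in which the mimic itself is not measured. According to the submitters' processing notes and the study's methods, the authors aligned reads to mm10 with STAR 2.5.2b and counted them per gene with featureCounts of Subread 1.5.1. The deposited values used here are raw counts of 48709 genes. The strand and multi-mapping settings of the counting are not given in the sources used here. The deposited series table holds the same counts divided by 1 factor per sample and was not used.

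Symbols of 48349 genes, coordinates, exon lengths (all exons merged), UTRs and shared 50-base windows came from GENCODE M21 (GRCm38, the same build as mm10). The miRNA sequence and promoters came from RefSeq, and the control sequence from the study's reagent list. Groups and replicate numbers came from the sample labels. The filter followed the study, with 5 or more counts required in 6 or more libraries. Genes were tested with edgeR 4.0.16 (R 4.3.3), TMM scaling, glmQLFit with robust estimation, glmQLFTest, no covariate, Benjamini-Hochberg adjustment, threshold 0.05, checked on simulated data. CPM used TMM-scaled totals. Within-library ratios used counts plus 0.5 and exact permutation tests (SciPy 1.17.1).

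Alternatives were DESeq2 1.42.0, median-ratio size factors, 2 other filters on low counts, 5 counts added to ratios, a replicate block and each library left out. Leaving out control replicates 1 and 2 together was added after the data were seen. The 36 genes, the 10 pairs, the further pathway genes and the marker lists were chosen with earlier results of these data known. Named were all 36 genes, of each further pathway group at most 3 called genes with the largest change and a mean of at least 100 counts, and of each marker list the 3 most abundant genes. Acta2, Tagln, Pdp2 and Phka1 were named after their values were seen. Of the genes this rule names, 1 is not reported here. Depth limits precision most for Pygm and Slc16a3.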

Additional observations from a re-analysis of the deposited data

Results flagged for a closer look

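The highest or lowest of 6 libraries was looked at again where its distance from its neighbour, as a share of the range, exceeded Dixon's 95% critical value. Of 92 values checked, 2 groups for each of 36 genes and 10 ratios, 6 stood out, and chance flags about 1 in 20 groups, or 4.6 of 92. Control replicate 1 stood out in 3 genes: Aldoc was at 580 CPM against 418 to 457 CPM in the other controls, Slc2a1 at 37.2 CPM against 27.3 to 30.3 CPM, and Gbe1 at 10.4 CPM against 12.8 to 13.9 CPM. Hk2 was at 10.3 CPM in mimic replicate 2 against 6.10 to 6.64 CPM in the other mimic libraries, and the log2 ratio Hk2/Hk1 was -5.228 in that library against -6.019 to -5.86. Aldoa was at 621 CPM in mimic replicate 3 against 579 to 594 CPM. Values of Aldoc and Slc2a1 without control replicate 1 are given above; what sets these libraries apart was not tested.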

How the results depend on the processing

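With median-ratio size factors and with DESeq2, all 36 genes kept their side of the threshold, and 35 kept their direction; Aldoa, at 0 in the main test, was at 0.002 with both. The count of members higher in mimic was 4, 3 to 7 when 1 library was left out (7 without control replicate 1) and 12 without control replicates 1 and 2, where Aldoa had a log2 fold change of 0.08; the count lower was 4, 3 to 5 and 5. Single calls were lost for Hk1 (without control replicate 2, mimic replicate 2 or mimic replicate 3), Pfkp (with no filter, under the replicate block and without mimic replicate 1) and Pdk2 (under the block and without 9 of the libraries), and gained for Gpi1 (with at least 50 counts in 6 libraries and without control replicate 4 or 5). Further pathway genes numbered 8 to 11 higher and 12 to 14 lower when 1 library was left out. The ratio Pfkp/Pfkm lay between -0.103 and -0.049 when 1 library was left out and passed without control replicate 1 (-0.103, exact permutation, adjusted p = 0.0144) and without both shallow controls (-0.118); Slc2a1/Slc2a3 lay between 0.070 and 0.159 and passed in the same settings (0.159 and 0.183). Without both shallow controls Slc16a1/Slc16a7 was -0.146 and passed (adjusted p = 0.0317, exact permutation), and Hk2/Hk1 was 0.122. Ldha/Ldhb lay between -0.005 and 0.059 and turned sign without mimic replicate 3 (-0.005). Replicate numbers are shared by the groups, but same-numbered libraries did not deviate together (correlations of -0.038 to 0.093, no library closest to its own number). Whether same-numbered cultures shared a preparation is not given in the sources used here. With the replicate block, Aldoc/Aldoa (0.241), Eno1/Eno2 (0.243), Pygm/Pygb (1.629) and Slc16a1/Slc16a7 (-0.244) did not pass (exact permutation, adjusted p = 0.104 for the first 3 and 0.156 for the last), in a design whose smallest p is 0.0312 before adjustment over 10 ratios. The other causes were not tested. Depth limits Slc16a3, with 7 to 39 counts per library, and Pygm, with 33 to 153.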

Other observations

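A short motif was counted in the promoters of these genes. Of the 36 genes, 34 had a promoter in the RefSeq table (250 bases before to 50 after a start), and 21 of the 34 (61.76%) held ACGTG on either strand (the word CACGTG holds it on both) in at least 1 promoter, compared with 4065 of 17492 protein-coding genes (23.24%). ACGTG is the core of the elements bound by hypoxia-inducible factors and by other basic helix-loop-helix proteins, and glycolytic genes are textbook targets of the former. The count is a description of these windows, genes differ in their number of promoters and base composition was not matched. Counted per promoter, 25 of the 52 promoters of these genes (48.08%) held ACGTG, against 6447 of 32851 promoters of all genes (19.62%). Genes with the motif included Pygm, Aldoc and Pdk2, which rose, Pygb, Hk1 and Slc16a1, which fell, and Gapdh and Slc2a1, which did not pass the test; Eno1 and Pfkp, which passed, had none in these windows.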
